A study of Mus musculus with 16 samples.

Results

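The genes described here encode the extracellular matrix of mouse spinal cord: collagens, laminins, nidogens, small leucine-rich proteoglycans, elastic fibre and adhesive glycoproteins, matrix metalloproteinases and their inhibitors. These families were chosen with earlier results of these data known. Their members were then taken by symbol, as every probe set on the array whose single annotated gene belongs to one of them. This gave 98 of 12488 probe sets, for 69 genes. Of these, 16 genes form basement membranes (collagen IV, laminins and nidogens) and 53 belong to fibrillar and other matrix. After a filter on low values, 44 of the 69 genes were tested, 9 of the basement membrane and 35 of the other matrix. The whole array gave 6427 probe sets tested, 1 for each named gene.

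RNA of whole mouse spinal cord was hybridised to 16 single-colour arrays, and pairs of arrays with one title apart from a final a or b were combined as their mean, giving 10 samples. The control group (Ctr) has 4 samples, a female and a male of 9 months and a female and a male of 12 months, each of 2 arrays. The spastic group (Spa) has 5 samples: a pair titled female of 2 months (Spa1-2moF and Spa2-2moF), 1 titled male of 3 months with the word sev (Spa-sev-3moM), 1 titled male of 3 months or more (Spa3+moM), and 1 titled female of 6 months with the letter M (Spa-M6moF), the last of 2 arrays and the others of 1. The third group is 1 male sample of 1 month and 2 arrays, titled B6C3Fe, a hybrid mouse stock. The spastic mutation is recessive and lies in Glrb, the gene of the glycine receptor's beta subunit; the strain of the controls is not given by the titles. The labels do not say whether samples are separate animals or pools, so p-values measure only the spread between these samples, which may be technical.

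Every spastic sample was titled younger than every control, apart from Spa3+moM, whose title gives only a lower bound of its age, and the B6C3Fe sample younger than all others, so genotype and age cannot be told apart between the groups. Glrb lay between 9.92 and 11.11 on the log2 scale in the spastic samples and between 12.88 and 13.17 in the controls, 5.41-fold lower in the fitted difference (adjusted p = 0.00031 by limma over all probe sets), and at 12.95 in the B6C3Fe sample. Both spastic samples titled male had Xist at 10.37 and 10.54 and the Y-linked Eif2s3y at the floor, the pattern of the samples titled female. Every spastic sample thus had the female pattern. The B6C3Fe sample had the male one, with Xist at the floor and Eif2s3y at 8.83, and the controls had both. In spastic minus B6C3Fe, genotype, age and this sex pattern therefore cannot be told apart, and the fits used titled sex. The log2 ratio of the 3-prime to the 5-prime probe set of the Pcx control, a measure of RNA integrity and labelling, was 1.53 to 2.02 in the controls, 2.00 to 2.98 in the spastic samples and 1.78 in the B6C3Fe sample. The median intensity per array was 289 to 384, and how precise a value can be is set by the few arrays.

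Basement membranes are thin sheets that underlie endothelium and surround pericytes, and in the spinal cord they also separate the meninges and astrocyte endfeet from the surrounding tissue. Their scaffold is a network of collagen IV, trimers that join alpha1 and alpha2 chains in most tissues, and a network of laminins, trimers of an alpha, a beta and a gamma chain; nidogens bridge the networks. Fibrillar collagens, made mainly by fibroblasts of the meninges and vessel walls in this tissue, form the tensile fibres, and decorin, lumican and biglycan bind to these fibres. In bulk tissue, a larger share of the cells that make a matrix protein and more of its RNA in each such cell cannot be told apart.

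Collagen IV is encoded by genes that lie in pairs head to head, and the pair on the array that passed the filter, Col4a1 and Col4a2, is such a pair. The RefSeq promoter table of mouse build GRCm38.p6 holds entries for 46 of the 69 genes. In it Col4a2 starts at position 11312805 of chromosome 8 on the plus strand, and Col4a1 at 11312826 on the minus strand, so the first bases of both transcripts overlap. The stretch between the starts, 22 bases long at chr8:11312805-11312826 and printed 5′ to 3′ on the plus strand, is shown because both genes of this pair were higher in the spastic samples. Capitals mark GGGCGG, the core of a GC box, searched on both strands. The 250 bases before the starts of Col1a2 (chr6:4505368-4505617, plus strand) and Col3a1 (chr1:45311288-45311537, plus strand) are printed below it for fibrillar collagens whose values by titled age are given further on. Capitals there mark the GC box core again, the CCAAT box and the TATA box as TATAAA, on either strand, and no match overlaps another.
Col4a1 and Col4a2: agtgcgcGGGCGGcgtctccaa
Col1a2: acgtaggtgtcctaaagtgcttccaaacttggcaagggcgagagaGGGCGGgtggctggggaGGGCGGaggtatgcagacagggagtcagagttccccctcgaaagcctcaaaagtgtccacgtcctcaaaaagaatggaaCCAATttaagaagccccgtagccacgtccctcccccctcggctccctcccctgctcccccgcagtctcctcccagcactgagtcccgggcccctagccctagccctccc
Col3a1: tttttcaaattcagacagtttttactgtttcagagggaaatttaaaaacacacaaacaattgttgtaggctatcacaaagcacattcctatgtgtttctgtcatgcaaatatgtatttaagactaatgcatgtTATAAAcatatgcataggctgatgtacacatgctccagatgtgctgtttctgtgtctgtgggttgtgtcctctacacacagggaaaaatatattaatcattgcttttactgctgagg

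The Col1a2 stretch holds 2 matches to GGGCGG and 1 to CCAAT, the latter 105 to 109 bases before the start, and the Col3a1 stretch holds 1 match to TATAAA, 112 to 117 bases before the annotated start. Over 32851 promoters of the table, the 250 bases before the start held GGGCGG on either strand in 32.7%, CCAAT in 33.8% and TATAAA in 12.4%. These matches describe the letters only, and binding was not measured.

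Spastic samples were compared with controls to ask which matrix genes differ in the mutant cord. Of the 44 members tested, 8 were higher and 2 lower at an adjusted p under 0.05. Higher were collagen IV chains Col4a1 and Col4a2, laminin chains Lama5 and Lamc1, the elastic fibre genes Eln and Fbln1, fibronectin (Fn1) and Sparc, and lower were decorin (Dcn) and Col19a1. These are 18.2% of the members higher and 4.55% lower, against 9.83% of all probe sets tested higher and 9.93% lower. Elastic fibre and adhesive glycoproteins accounted for 4 of the 8 and the basement membrane for the other 4, while 0 of 7 fibrillar collagens passed the threshold in either direction. All 5 spastic samples lay above all 4 controls in 8 of 44 members (9.3% of all probe sets) and below them in 1 (10.2%).

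**Figure D1:**
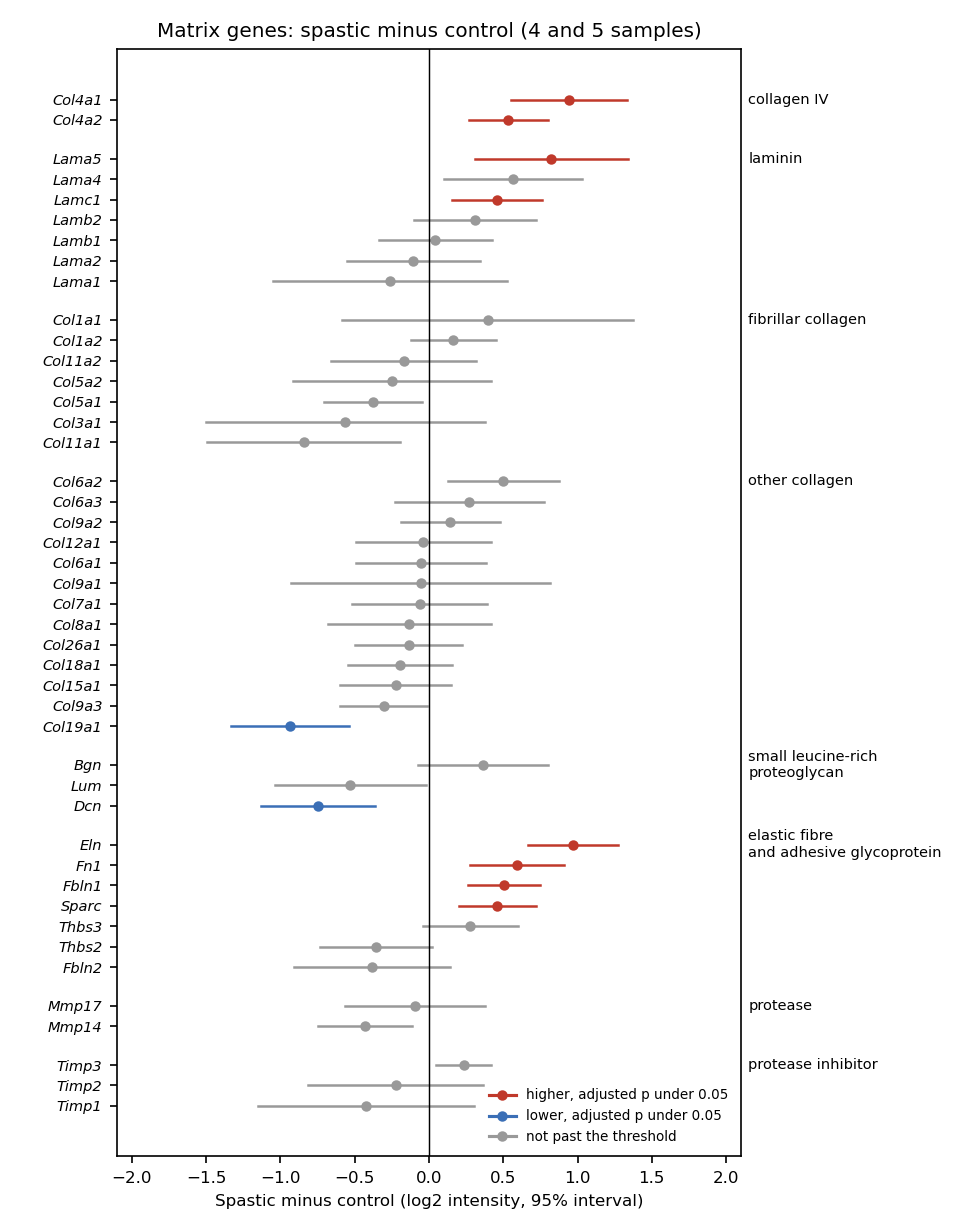
Fitted difference of spastic minus control in log2 intensity (x axis) for the 44 members tested, grouped by role (y axis). Points are estimates and lines 95% intervals, red for higher and blue for lower at an adjusted p under 0.05; the 8 higher members belong to collagen IV, laminins and glycoproteins, and the 7 fibrillar collagens lie on both sides of 0 without passing the threshold.

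Among basement membrane genes, 4 of 9 tested were higher and 0 lower, and the median difference of the 9 was 0.45 on the log2 scale, against −0.02 over all probe sets tested. The direction was not shared by every chain: 7 of the 9 were positive, from 0.04 for Lamb1 to 0.94 for Col4a1, and Lama1 and Lama2 were negative. The other 7 members of this class lay under the filter (Col4a3, Col4a4, Col4a5, Lama3, Lamb3, Nid1 and Nid2). Of these, the collagen IV chain Col4a5 went the other way from Col4a1 and Col4a2, with a control mean of 7.18 and a spastic mean of 6.34. It was at the floor on 1 of 8 control arrays and 4 of 6 spastic arrays, and was not tested. With no filter the median over all 16 was 0.0088.

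Col4a1, the alpha1 chain of collagen IV, had log2 intensities of 9.70 in Ctr9moF, 9.25 in Ctr9moM, 9.38 in Ctr12moF and 9.12 in Ctr12moM. The spastic samples had 10.25 in Spa1-2moF, 10.55 in Spa2-2moF, 10.32 in Spa-sev-3moM, 10.62 in Spa3+moM and 9.81 in Spa-M6moF, and the B6C3Fe sample had 10.11. By sample mean the groups did not overlap, the 6-month spastic sample lay nearest the controls, and the B6C3Fe sample fell within the spastic range. Single arrays overlapped, with array a of Ctr9moF at 9.96 and array b of Spa-M6moF at 9.55. The fitted difference of spastic minus control was 0.94 (SE 0.18), a 1.92-fold higher level (adjusted p = 0.0056). It was called in all 10 fits that left out 1 sample.

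Col4a2, the alpha2 chain that shares the trimer with alpha1, was at 9.79, 9.94, 10.15 and 10.11 in the controls, in the same order. The spastic samples were at 10.72, 10.70, 10.40, 10.51 and 10.36, and the B6C3Fe sample at 10.13. All 5 spastic samples lay above the controls and the B6C3Fe sample within the control range, unlike that for Col4a1. The difference was 0.53 (SE 0.12), 1.45-fold (adjusted p = 0.012), and it was called in each of the 10 fits without 1 sample.

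Laminin alpha chains carry the cell-binding end of the trimer, and Lama4 and Lama5 are the alpha chains of endothelial basement membrane. Lama5 was at 7.78, 7.78, 6.87 and 7.16 in the controls and at 7.95, 8.27, 8.36, 8.33 and 8.08 in the spastic samples. The B6C3Fe sample was at 6.87. The spastic samples lay above all others, while the 9-month controls lay above the 12-month controls. The difference was 0.82 (SE 0.23), 1.77-fold (adjusted p = 0.030), and it was called in 4 of the 10 fits without 1 sample. The call was lost without either 12-month control (0.64 and 0.70, adjusted p of 0.0999 and 0.088) and without Spa2-2moF, Spa-sev-3moM, Spa3+moM or Spa-M6moF (0.79 to 0.84, adjusted p of 0.053 to 0.066). A second Lama5 probe set under the filter did not show it, with 7.69 to 7.90 in the controls and 6.89 to 7.85 in the spastic samples.

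Lamc1 encodes the gamma1 chain, which most laminins share. Its controls were at 9.09, 9.65, 9.36 and 9.45, its spastic samples at 9.61, 10.04, 10.07, 9.71 and 9.69, and the B6C3Fe sample at 10.19, above both groups. The lowest spastic sample overlapped the controls. The value of Ctr9moF is the mean of array a at 8.54 and array b at 9.65, and the call was lost without that array a. The difference was 0.45 (SE 0.14; adjusted p = 0.040), and it was called in 2 of the 10 fits without 1 sample, those without Spa3+moM or the B6C3Fe sample. Without any one of the other 8 samples it was 0.37 to 0.51, with adjusted p of 0.051 to 0.11. Its other probe set lay near the floor in all samples.

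The remaining laminins did not pass the threshold. Lama4 had a difference of 0.56 (SE 0.21; adjusted p = 0.085), with controls at 7.49, 7.95, 8.19 and 8.16 and spastic samples at 8.48, 8.57, 8.13, 8.90 and 8.42; 1 spastic sample, Spa-sev-3moM, lay within the control range, and without it the difference was 0.72 (adjusted p = 0.040). Lamb2, the beta2 chain, had a difference of 0.31 (adjusted p = 0.27), from controls at 7.997 to 8.26 and spastic samples at 8.09 to 8.84. Lama1, the alpha1 chain of meningeal basement membrane, had a difference of −0.26 (adjusted p = 0.65), with controls at 7.48, 7.42, 8.21 and 8.17 and spastic samples at 7.66, 6.25, 7.86, 7.87 and 8.03. Lama2 and Lamb1 differed by −0.11 and 0.04. A second Lamb1 probe set, under the filter, was at 7.08 to 7.99 in the controls and 6.67 to 7.70 in the spastic samples, a difference of means of −0.60.

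Eln, which encodes tropoelastin, the monomer of elastic fibres, had the smallest p among the members. The controls were at 8.82, 8.52, 9.04 and 8.82 and the spastic samples at 9.53, 9.96, 9.85, 9.80 and 9.73. The groups did not overlap, the spread within each was small, and the B6C3Fe sample, at 10.67, lay above both. The difference of spastic minus control was 0.97 (SE 0.14), 1.96-fold (adjusted p = 0.0020), and it was called in all 10 fits without 1 sample. A second Eln probe set lay at or near the floor in every sample.

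Fbln1 encodes fibulin 1, a glycoprotein of elastic fibres and basement membranes. Its tested probe set was at 9.97, 10.20, 9.86 and 9.82 in the controls, at 10.43, 10.51, 10.62, 10.32 and 10.43 in the spastic samples, and at 10.67 in the B6C3Fe sample. The groups did not overlap by sample mean, though array b of Ctr9moM, at 10.33, was level with Spa3+moM. The fitted difference was 0.50 (SE 0.11, adjusted p = 0.011). When every probe set was tested, all 3 Fbln1 probe sets above the filter were called higher, by 0.40, 0.50 and 1.31, and the fourth was at the floor in all control and spastic samples.

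Fn1, the gene of fibronectin, an adhesive glycoprotein of vessel walls and plasma, was at 9.33, 9.24, 9.46 and 9.27 in the controls and at 9.56, 10.28, 9.86, 9.93 and 9.997 in the spastic samples. The B6C3Fe sample was at 9.54, just under the lowest spastic sample. The groups did not overlap, and the difference was 0.59 (SE 0.14; adjusted p = 0.016), called in all 10 fits without 1 sample.

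Sparc encodes a collagen-binding glycoprotein abundant in endothelium and glia. It was at 12.90, 12.91, 12.58 and 12.57 in the controls, at 12.98, 13.06, 13.33, 13.33 and 13.23 in the spastic samples, and at 12.51 in the B6C3Fe sample. By sample mean all spastic samples lay above all others, with the 2-month samples nearest the controls. Single arrays overlapped, with Ctr12moM at 11.83 and 13.32 and array a of Ctr9moF at 13.19. The fitted difference was 0.46 (SE 0.12, adjusted p = 0.020), called in 7 of the 10 fits without 1 sample. It was 0.42 without Ctr12moF, 0.38 without Ctr12moM and 0.44 without Spa3+moM, with adjusted p of 0.054 to 0.074. The remaining tested glycoproteins did not pass: Thbs3 at 0.28, Thbs2 at −0.36 and Fbln2 at −0.38.

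Dcn, which encodes decorin, a proteoglycan that binds collagen fibrils and growth factors, was at 12.30, 12.60, 12.84 and 12.71 in the controls. The spastic samples were at 11.55, 12.44, 11.84, 11.67 and 11.86, and the B6C3Fe sample was lower still, at 11.32. A 2-month spastic sample, Spa2-2moF, overlapped the controls. The difference was −0.75 (SE 0.18), a 1.68-fold lower level (adjusted p = 0.015), and it was called in 9 of the 10 fits without 1 sample. Without Ctr12moF it was −0.66 (adjusted p = 0.060).

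Col19a1, a collagen of the FACIT class that associates with basement membrane zones and is made by some interneurons in the nervous system, was at 8.80, 9.03, 9.51 and 9.16 in the controls and at 8.09, 8.26, 8.37, 7.90 and 8.37 in the spastic samples. The groups did not overlap, and the B6C3Fe sample, at 8.51, lay between them. The difference was −0.94 (SE 0.18), 1.91-fold lower (adjusted p = 0.0061), and it was called in each fit that left out 1 sample. It was the only one of 13 tested non-fibrillar collagens outside the basement membrane class to pass the threshold.

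**Figure D2:**
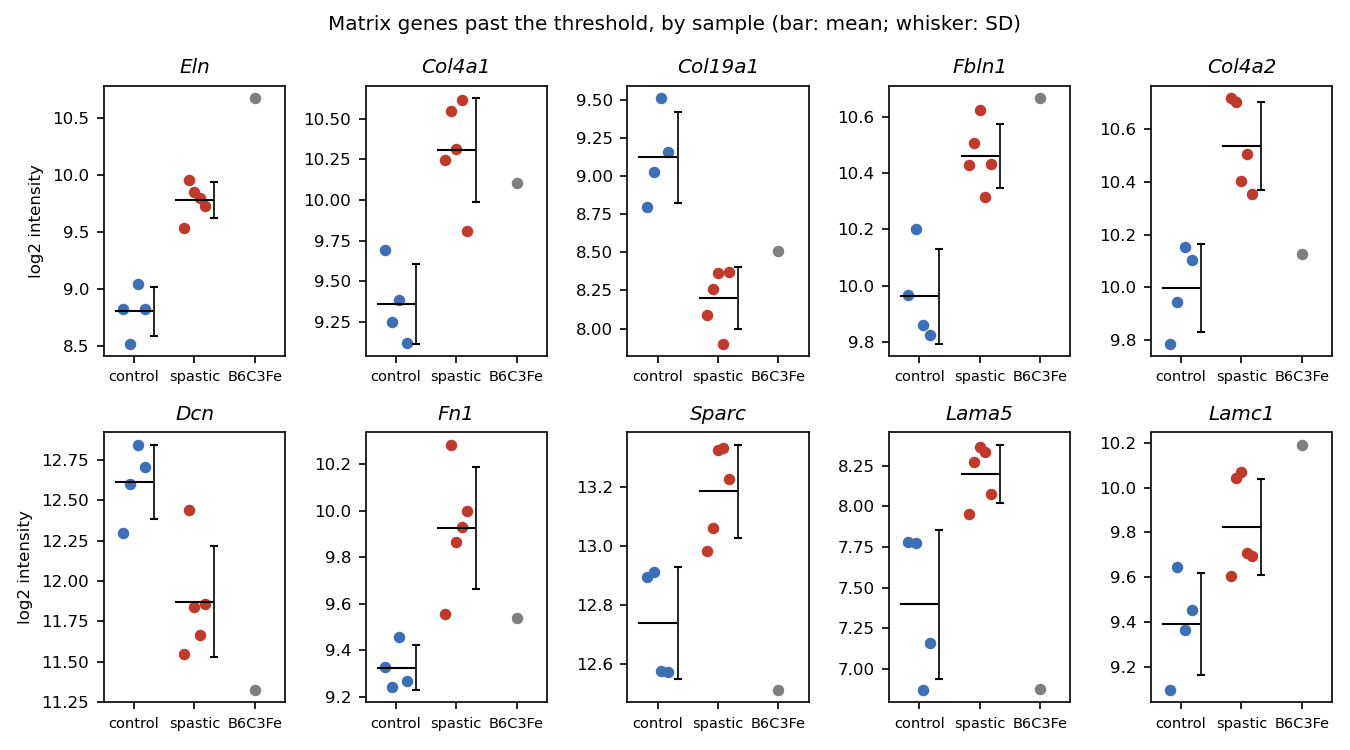
Log2 intensity (y axis) of the 10 members past the threshold, by sample, for 4 control, 5 spastic and 1 B6C3Fe samples (x axis); bars are means, whiskers SDs, and the y axes differ and do not start at 0. Spastic and control samples do not overlap except in Dcn and Lamc1, and the B6C3Fe sample is nearer the spastic mean in 6 of the 10 genes.

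The B6C3Fe sample separated the called members. It was nearer the spastic than the control mean in Eln, Col4a1, Fbln1, Lamc1, Dcn and Col19a1, and nearer the control mean in Col4a2, Fn1, Sparc and Lama5. In spastic minus B6C3Fe, 0 of 44 members were called by limma, where 1.42% of all probe sets were called higher and 0.638% lower. An unadjusted p under 0.05 was found for 13 members, against 1304 of all 6427 probe sets tested. The smallest adjusted p of a member was 0.051 for Col9a3 (difference −1.001). In B6C3Fe minus control, Eln was the only member called, at 1.91 (adjusted p = 0.0086), where 0.0778% of all probe sets were called higher and 0.311% lower. These comparisons share samples with spastic minus control. Each also rests on 1 B6C3Fe sample, assumed to vary like the other groups.

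When the B6C3Fe sample was placed among the controls and log2 of titled age was added to the model, 6 members were called in spastic minus control, and 2 of them were among the first 10: Sparc at 0.61 (adjusted p = 0.019) and Lama5 at 1.07 (adjusted p = 0.034). The other 4 were lower (Col9a3, Lum, Col3a1 and Col15a1, from −0.65 to −1.56). In that fit Eln had a difference of 0.08 (adjusted p = 0.84), Col4a1 of 0.50 (adjusted p = 0.079) and Col4a2 of 0.43 (adjusted p = 0.061). With the Pcx ratio as a covariate, 0 members passed and 9 probe sets of the whole array did; Eln was then at 0.94 (adjusted p = 0.071), Col4a1 at 0.81 (adjusted p = 0.18) and Col4a2 at 0.70 (adjusted p = 0.091). With the B6C3Fe sample among the controls and no age term, Eln was at 0.65 (adjusted p = 0.19), Fbln1 at 0.39 (adjusted p = 0.095), Dcn at −0.54 (adjusted p = 0.17) and Lamc1 at 0.34 (adjusted p = 0.19). With every array entered and the sample as a random block, 6 members were called higher and 5 lower; Lama5, Lamc1 and Sparc were no longer called, Col6a2 was added as higher, and Lum and the fibrillar collagens Col11a1 (−0.85, adjusted p = 0.041) and Col5a1 (−0.41, adjusted p = 0.030) as lower. Without both spastic samples titled male, 2 members were called, Eln at 0.81 and Col6a2 at 0.82.

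Endothelial markers were higher in the spastic samples in the same comparison. Of 10 tested, 8 were called higher, among them Eng (1.24), the glucose transporter gene Slc2a1 (1.33), Abcb1a (1.26) and the tight junction gene Cldn5 (1.04). The summed intensity of the 15 endothelial markers on the array was 12.21 to 12.54 in the controls, 13.26 to 13.40 in the spastic samples and 12.48 in the B6C3Fe sample. Of 7 tested mural cell markers, 3 were called higher (Acta2 at 1.78, Notch3 at 0.80 and Tagln at 0.71), with summed levels of 11.68 to 11.87, 12.16 to 12.36 and 11.94 in the same order. The summed level of the 16 basement membrane members was 12.05 to 12.18 in the controls and 12.37 to 12.69 in the spastic samples. In the B6C3Fe sample it was 12.43. This sum adds linear intensities, so bright genes such as Col4a1 and Col4a2, both called, weigh most in it. With no filter, the median difference of spastic minus control over the 16 genes was 0.0088. The part of vessel cell markers and of the Pcx ratio in the members' differences was not tested.

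**Figure D3:**
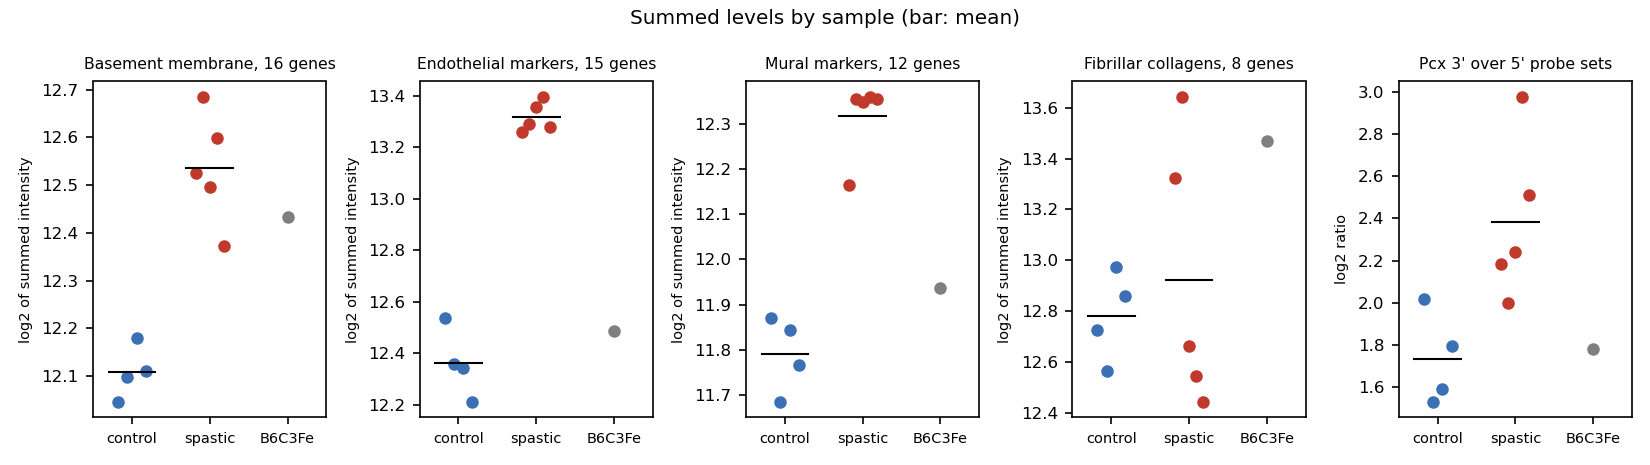
Log2 of summed intensity (y axis) of the basement membrane members, endothelial markers, mural markers and fibrillar collagens, and the log2 ratio of the Pcx 3-prime to 5-prime control probe sets, by sample and group (x axis); bars are means and y axes do not start at 0. Endothelial and basement membrane sums of all 5 spastic samples lie above all 4 controls, while the B6C3Fe sample is at control level for endothelial markers and at 12.43, within the spastic range, for the basement membrane; fibrillar collagen sums of the groups overlap.

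For meningeal fibroblasts, the main source of fibrillar matrix in this tissue, 0 of 7 tested markers were called. The differences of these 7 were mixed, 4 positive and 3 negative, with a median of 0.09. The summed level of the list was 14.29 to 14.39 in the controls and 14.40 to 14.83 in the spastic samples, without overlap. That sum weighs the brightest markers most. Of 11 microglial markers 4 were called lower (Mpeg1, Lgmn, Ctss and Tyrobp), of 11 skeletal muscle markers 2 were lower (Myh4 at −3.44 and Actn3 at −0.80), and 0 of 2 tested cartilage and bone markers were called, with Matn1 and Matn3 at the floor in all control and spastic samples. Only Egr2 of the Schwann cell list was on the array, at 8.54 in the control mean and 8.55 in the spastic mean, and 0 of 3 blood markers were called in this comparison. Of 7 spinal cord neuron and glia markers, 2 were higher (Slc18a3 at 2.05 and Nefm at 0.39) and 2 lower (Syt1 at −2.83 and Nefl at −1.10).

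Genes that act with the members gave the following counts. Of 13 tested matrix receptors 3 were higher and 0 lower: Dag1, the laminin receptor dystroglycan (0.50, adjusted p = 0.0053), the integrin beta1 chain Itgb1 (0.46, adjusted p = 0.017) and the heparan sulfate proteoglycan Sdc4 (0.80, adjusted p = 0.029). Among 21 other matrix proteins 5 were higher and 0 lower. The smallest p was that of Ltbp4, which binds latent TGF-beta and supports elastic fibre assembly (0.83, adjusted p = 0.0027), with Mgp at 0.75, Smoc1 at 0.49 and Ccn2 at 0.96. None of 8 tested genes of matrix assembly and cross-linking was called by limma, with differences of −0.15 to 0.28. In TGF-beta signalling 1 of 9 was higher, Eng, which is also on the endothelial list.

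Within the spastic group, Col1a1 was highest in both 2-month samples. The comparison of the 2-month spastic samples with the 3 older ones was added after the values of Col1a1 and Col1a2 had been seen, so its p-values describe those genes and give them no independent support. Col1a1, which encodes the alpha1 chain of type I collagen, was at 12.25 and 12.50 in Spa1-2moF and Spa2-2moF. It was at 9.95 in Spa-sev-3moM, 10.24 in Spa3+moM and 9.94 in Spa-M6moF. The controls were at 10.64, 10.13, 10.67 and 10.50, and the 1-month B6C3Fe sample was at 11.90. The 3 youngest samples of the series were thus above all 7 others. The fitted difference of 2-month minus older was 2.24 (SE 0.20), 4.73-fold (adjusted p = 0.0020), the smallest p of all probe sets tested; 0.0622% of all probe sets were called higher and 0.0467% lower. Over all 5 spastic samples, spastic minus control for Col1a1 was 0.39 (SE 0.45; adjusted p = 0.57).

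A second Col1a1 probe set gave the same order with a larger gap. It was at 12.52 and 12.83 in the 2-month samples, 8.45 to 8.88 in the older spastic samples, 8.87 to 9.38 in the controls and 11.57 in the B6C3Fe sample, a fitted difference of 3.82 between 2-month and older samples. For Col1a2, the alpha2 chain of the same trimer, the probe set with the lower mean was at 11.15 and 11.86 in the 2-month samples, 8.80 to 9.86 in the older ones, 9.57 to 9.95 in the controls and 10.65 in the B6C3Fe sample. This difference was 1.98 (adjusted p = 0.051 with every probe set tested). The Col1a2 probe set with the higher mean, the one tested, did not show it, at 11.42 and 11.80 in the 2-month samples and 11.35 to 11.71 in the older ones (difference 0.16). The probe sets of Col1a2 thus disagree.

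All 7 tested fibrillar collagens were positive in 2-month minus older spastic, with a median of 0.64 against 0.01 over all probe sets tested, and Col1a1 was the only member called. Col3a1, the alpha1 chain of type III collagen, was at 8.08 and 9.08 in the 2-month samples, 7.53, 5.93 and 7.40 in the older ones and 9.47 in the B6C3Fe sample (difference 1.43, adjusted p = 0.69); Spa3+moM was at the floor. Col5a2, a chain of the type V collagen that nucleates fibrils, was at 8.76 and 9.08 against 7.73, 6.96 and 7.70 (difference 1.21, adjusted p = 0.41). Bgn, the gene of biglycan, was at 11.07 and 11.37 against 10.25, 9.90 and 10.43 (difference 0.85, adjusted p = 0.21). In Bgn, Col1a1, Col5a2 and Col6a2, 4 of the 44 members tested, the 2-month spastic samples and the B6C3Fe sample were above all 7 other samples. The share of all probe sets with this order was not counted, so the 4 cannot be set against the array. A second Bgn probe set did not show it, at 9.65 and 9.91 in the 2-month samples and 9.22 to 9.66 in the older ones.

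**Figure D4:**
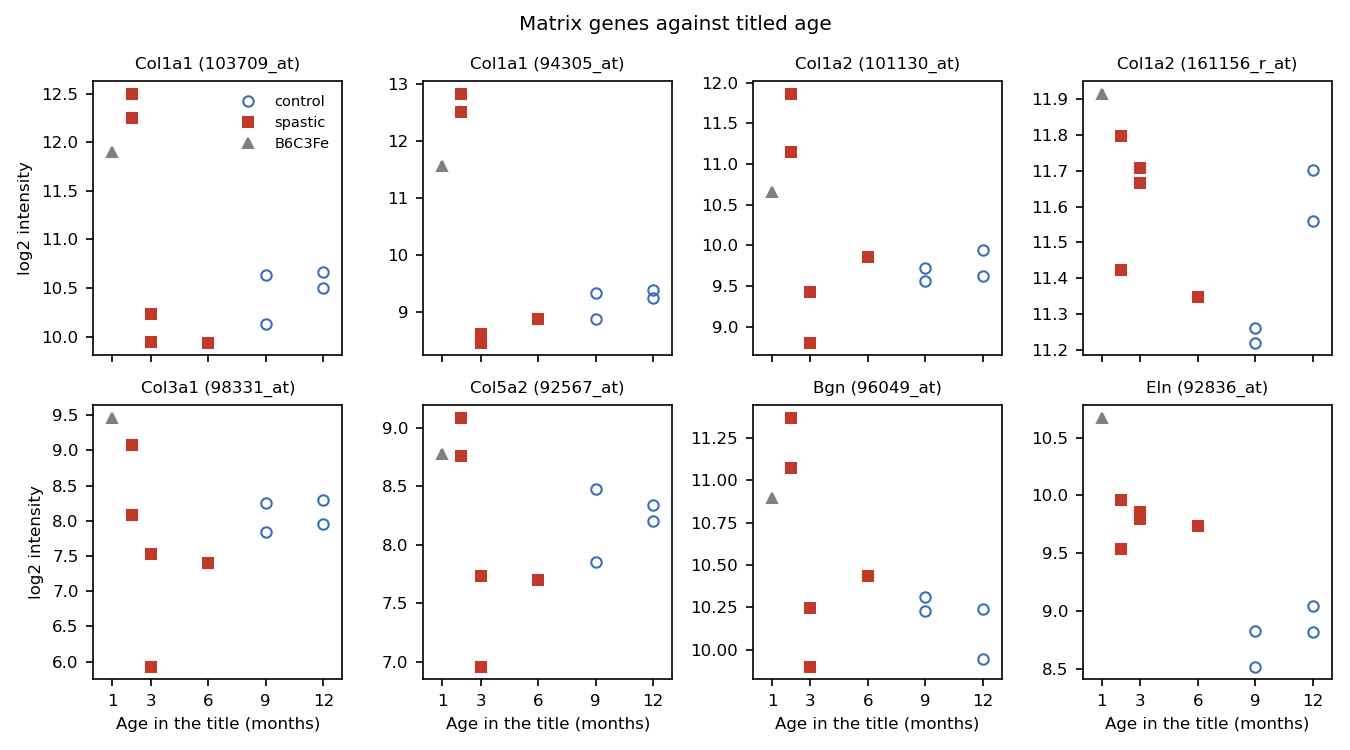
Log2 intensity (y axis) of 8 probe sets of Col1a1, Col1a2, Col3a1, Col5a2, Bgn and Eln against the age in the title in months (x axis), for control (open circles), spastic (squares) and B6C3Fe (triangles) samples; the sample titled 3+ is drawn at 3. Both Col1a1 probe sets are above 11.5 in the 3 samples of 1 and 2 months and under 10.7 in the rest, whereas Eln is above 9.5 in every spastic sample.

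Samples of 2 months also differed from the older spastic samples in red cell genes. The 7 probe sets called were Col1a1, Hbb-b2 (1.72), the erythroid heme synthesis gene Alas2 (1.63), Hba-a1 (−1.62), Gpr137b (2.17) and 2 without a single symbol (−2.59 and −2.06). Summed blood markers were 13.21 and 13.16 in the 2-month samples, 13.72 to 14.63 in the older ones and 12.15 in the B6C3Fe sample. Summed skeletal muscle markers were 13.79 and 14.48 in the 2-month samples, 13.19 to 14.06 in the older ones and 13.96 in the B6C3Fe sample. Summed meningeal fibroblast markers were 14.40 and 14.68 in the 2-month samples, 14.44 to 14.83 in the older ones and 14.39 in the B6C3Fe sample; 5 of 7 tested markers were positive in 2-month minus older, with a median of 0.34, and 0 were called. The part of these markers in the Col1a1 difference was not tested. Summed cartilage and bone markers were 9.80 and 10.11 against 9.51 to 9.93. In the fit that took the Pcx ratio as a covariate, the Col1a1 difference was 2.45 (adjusted p = 0.0069).

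Among collagens not called in spastic minus control, Col6a2 and Col11a1 had the smallest adjusted p-values. Col11a1, a chain of thin fibrils, was at 8.75, 8.47, 9.23 and 9.10 in the controls and at 8.69, 8.56, 8.27, 6.86 and 8.13 in the spastic samples (difference −0.84, SE 0.30; adjusted p = 0.066), with Spa3+moM the lowest. Without Spa-sev-3moM it was −1.03 (adjusted p = 0.043). Col6a2, a chain of the beaded filaments of type VI collagen, was at 8.64, 8.91, 8.75 and 8.87 and at 9.57, 9.75, 9.12, 8.90 and 9.24 (difference 0.50, SE 0.17; adjusted p = 0.061), and without Spa3+moM the difference was 0.61 (adjusted p = 0.044). Its partner chains Col6a1 and Col6a3 differed by −0.05 and 0.27. Apart from Col19a1, the other tested collagens outside the basement membrane lay between −0.56 for Col3a1 and 0.39 for Col1a1.

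Proteases were mostly dim: 2 of 13 metalloproteinases passed the filter, the membrane-bound Mmp14 (−0.43, adjusted p = 0.056) and Mmp17 (−0.09), and 11 did not, among them Mmp2, Mmp3 and Mmp9. All 3 inhibitors passed the filter and 0 were called by limma. In this comparison 18 of the 44 members had an unadjusted p under 0.05, against 2203 of all 6427 probe sets tested. Timp3 was above every control in all 5 spastic samples by sample mean, with a difference of 0.23 (adjusted p = 0.072). Timp1 and Timp2 differed by −0.42 and −0.22. The Timp1 probe set tested was at 8.54 in Spa1-2moF and at 10.11 to 10.55 on the other spastic arrays. Timp2 was at 8.14 on array a of Ctr9moF and 11.14 on array b. Without that array a, limma called Timp2 lower (−0.63, adjusted p = 0.042) and Timp3 higher (0.33, adjusted p = 0.028). Of the remaining members under the filter, Fbn2, Col2a1, Col10a1, Col13a1, Col14a1, Col17a1 and Col22a1 were not tested, and 4 of the 69 members were at the floor on every array. The filter stood at a mean log2 intensity of 7.62, with the nearest member inside at 7.625 and Mmp9 just outside at 7.624.

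Among the controls, 12 minus 9 months gave 0 calls over all probe sets (0% called; 322 at an unadjusted p under 0.05, 2 of them members), and the smallest p among members was that of Lama5, whose 12-month samples were 0.77 lower. The spastic sample titled sev minus the other spastic samples also gave 0 calls by limma (0% called; 257 at an unadjusted p under 0.05, 1 of them a member, Fbln2 at 0.98). Of the 10 members called in spastic minus control, the sev sample lay within the range of the other spastic samples in 7 and above it in 3: Fbln1, Lama5 and Lamc1.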

How the data were processed

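Spinal cord RNA was hybridised to 16 arrays with 1 colour. The deposited table holds 1 linear intensity for each probe set on each array, and its mean after trimming 2% at each end was 800.4 to 800.5 on every array, so the authors' intensity values were used at that scale without further normalization; the labels name no software. A floor was set at the 20th percentile of all values, 60.9 or 5.93 in log2, before log2 values were computed.

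Genes were named from the platform annotation, and all 69 members matched the RefSeq table by Entrez ID. A gene was tested where the mean log2 value of its brightest probe set exceeded the 40th percentile. Group, age and sex were read from the titles. The test was limma 3.58.1 under R 4.3.3, lmFit followed by eBayes with a trend, with titled sex in the model and all groups sharing 1 spread, 2-sided, with Benjamini-Hochberg adjustment over all 6427 probe sets; a difference was called at an adjusted p under 0.05. Fits were tested on simulated data. Summed levels are log2 of added intensities, 1 probe set for each gene, so the brightest genes weigh most.

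The members, gene lists and marker lists were chosen with earlier results of these data known. Given by sample were members called in spastic minus control or spastic minus B6C3Fe. So were the 3 tested but uncalled members of each class with the largest difference of means, and the 2 of each class with the highest mean. Members under the filter were left out of this choice. Others are given by difference or range, and up to 4 called genes of each list. The comparison of 2-month with older spastic samples, and the members named from it, were chosen after their values were seen. Alternatives were other floors, filters and models, quantile normalization, arrays as replicates or blocks, other covariates and samples, and leaving out each sample.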

Additional observations from a re-analysis of the deposited data

Results flagged for a closer look

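In Lama1, 1 spastic sample, Spa2-2moF, lay far below the others, at a log2 intensity of 6.25 where the next lowest spastic sample was at 7.66. Its gap was 0.79 of the group's range. It was 1 of 36 groups of samples looked at, and the 95% critical value of Dixon's test used here passes about 1 in 20 such groups by chance.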

How the results depend on the processing

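The count of 10 members called in spastic minus control ran from 6 to 10 when 1 sample was left out, 6 without the 12-month female controls. It was 2 without both spastic samples titled male, 0 with the Pcx ratio as a covariate, and 6 when B6C3Fe joined the controls and log2 of age was a covariate. In that last fit the Col1a1 difference of spastic minus control turned to −0.80. That of Lama1 ran from −0.45 to 0.030 without 1 sample, the latter without Spa2-2moF.

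The 0 members of spastic minus B6C3Fe became 1 with no filter (Mmp10), with a filter at the 60th percentile and with quantile normalization (Col9a3 in both), 7 with every array as a replicate, 4 with the sample as a random block, 2 when the 9-month female control lost its array a, and 0 to 2 without 1 sample. The 1 member of B6C3Fe minus control became 2 with no filter, 9 with every array as a replicate and 2 with a random block. In 2-month minus older spastic it was 0 with no filter, where Col1a1 had the same 2.24 (adjusted p = 0.14), 2 with no sex term, and 1 to 2 without 1 sample, with Timp1 added without Spa2-2moF; the Col1a1 difference ran from 1.94 to 2.36 there.

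The median of basement membrane genes was 0.38 with the floor at the 40th percentile, 0.0088 with no filter, 0.53 with a filter at the 60th, 0.36 when the 9-month female control lost array a, 0.55 without the spastic samples titled male, 0.35 with B6C3Fe among the controls, and 0.37 to 0.51 without 1 sample. That of the other matrix genes was 0.16 with a filter at the 60th percentile and 0.19 with the Pcx ratio. The cause of these shifts was not tested.

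A further fit entered every array with the letter as a replicate block and no term for the sample. Arrays of 1 sample, such as both B6C3Fe arrays, thus counted as replicates in it, as in the fit with every array as a replicate. With this limit, 6 members were called in spastic minus B6C3Fe, 9 in B6C3Fe minus control and 2 in 2-month minus older spastic. The basement membrane median was 0.51. In spastic minus control 8 were higher and 4 lower by limma, without Sparc (adjusted p = 0.064). Col6a2 was called higher (adjusted p = 0.015), and Lum and Col5a1 lower (adjusted p of 0.046 and 0.029). Differences between arrays a and b of a sample correlated at −0.04 to 0.16 across samples, median 0.02. A shift in few probe sets or few samples would leave such correlations low, so what the letter stands for is not known.

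Age, the Pcx ratio and the sex pattern of Xist and Eif2s3y differ with group, 4 of 5 spastic samples are single arrays, and B6C3Fe is 1 sample. Values near the floor understate differences, and probe sets of Col1a2, Lama5, Lamb1 and Bgn, among others, differ.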
